A study of Komagataella phaffii with 72 samples.

Results

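Clones 13 and 14 of strain GS115 are separate transformants of the yeast Komagataella phaffii (Pichia pastoris) that carry a gene for human granulocyte colony-stimulating factor (rhG-CSF, labelled rG-CSF). They were chosen for their transgene mRNA, which was the highest of the GS115 rhG-CSF clones in clone 13 and the lowest in clone 14. Each clone was represented by 3 cultures, A, B, and C, so 6 of the 72 libraries in the series were compared, and the host transcriptome of these cultures is described here. The third clone of this strain and product, clone 12, added 3 libraries to the estimate of the spread. The whole series covers 4 strains (GS115, Y-11430, Y-48124, and X-33), 2 products (rhG-CSF and rhGH, recombinant human growth hormone), and 3 clones of each, grown as 3 cultures.

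All cultures were grown on 4% glycerol for 24 hr and then on 1.5% methanol for 24 hr before RNA was collected. GS115 is a histidine auxotroph that was obtained by mutagenesis of Y-11430, and all of the GS115 cultures carry this background. The study lists Y-48124 and X-33 as revertants of GS115. It found that both carry a different substitution in HIS4 and grow slowly without histidine. The transgene was placed under the promoter of AOX1, the alcohol oxidase gene that K. phaffii uses to grow on methanol. This promoter is repressed on glycerol and strongly induced on methanol, so the switch of carbon source starts both methanol metabolism and production of the recombinant protein. Transformants of the same strain can differ in how many copies of an expression cassette they carry and where it integrated, and in secondary changes picked up during transformation. Each group here is 1 clone, so a difference between the groups is a difference between 1 transformant and another, and the p-values measure only the spread between cultures of the same clone. In bulk cultures, fewer cells of a kind and less RNA per cell cannot be told apart.

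The 6 libraries held between 1423848 and 33003281 counts, and the deepest, culture 14A, had 5.50 times the counts of the next. Between 5046 and 5115 of the 5120 host genes had at least 1 count in each. All 3 clone 14 libraries were deeper than all 3 clone 13 libraries, so depth and clone cannot be told apart by these libraries alone, and the main counts were repeated after thinning. NIT1 and PDR12 checked the strain label. NIT1, a nitrilase homolog, was between 411.1 and 1524 CPM (counts scaled to a common library total, here over all 72 libraries and below over the 9 GS115 rhG-CSF libraries unless stated) in the 6 cultures and between 7.66 and 67.5 CPM in the 54 libraries of the other strains. PDR12, which in Saccharomyces cerevisiae exports weak organic acids, was between 68.6 and 160.5 CPM in the 6 cultures and between 849.3 and 4630 CPM in the others. The 6 cultures lay outside the range of the other strains for both genes. YDL218W, another gene that the study associates with GS115, overlapped, with 371.9 to 1837 CPM in the 6 cultures and 69.3 to 848.2 CPM in the others.

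The transgene levels are given as a description, because the clones were selected on them. In log2(TPM + 1), where TPM scales each transcript to its length and to the total of its library, the rhG-CSF transgene was 13.09, 14.06, and 14.14 in cultures A, B, and C of clone 13. It was 9.17, 9.65, and 10.72 in cultures A, B, and C of clone 14. The clone means were 13.76 ± 0.587 and 9.85 ± 0.791 (SD, n = 3). They differed by 3.92 on this scale, and by a smaller 3.60 in log2 CPM by total counts. GS115 cultures that produced rhGH instead gave between 5.10 and 5.70 for the same transgene, from 67 to 152 counts per library, which is the background of this measurement. Clone 12 fell between the clones with 10.49, 12.49, and 12.50. In each clone 1 culture stood apart from the other 2, namely 13A and 12A on the low side and 14C on the high side. Clones 13, 12, and 14 had marker transgene means of 6.85 ± 0.271, 5.75 ± 0.222, and 4.41 ± 0.0861 (SD, n = 3), the same order. These means rest on few reads, with 82 to 145 counts per clone 13 library, 52 to 91 for clone 12, and 61 to 404 for clone 14. Background reads of the rhGH transgene were of similar number, with 60 to 95 counts for clone 13 and 93 to 638 for clone 14. Their mean was also higher for clone 13 (5.38) than for clone 14 (4.11), although clone 12 was highest (6.40). The order of the marker was therefore not told apart from background.

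**Figure D1:**
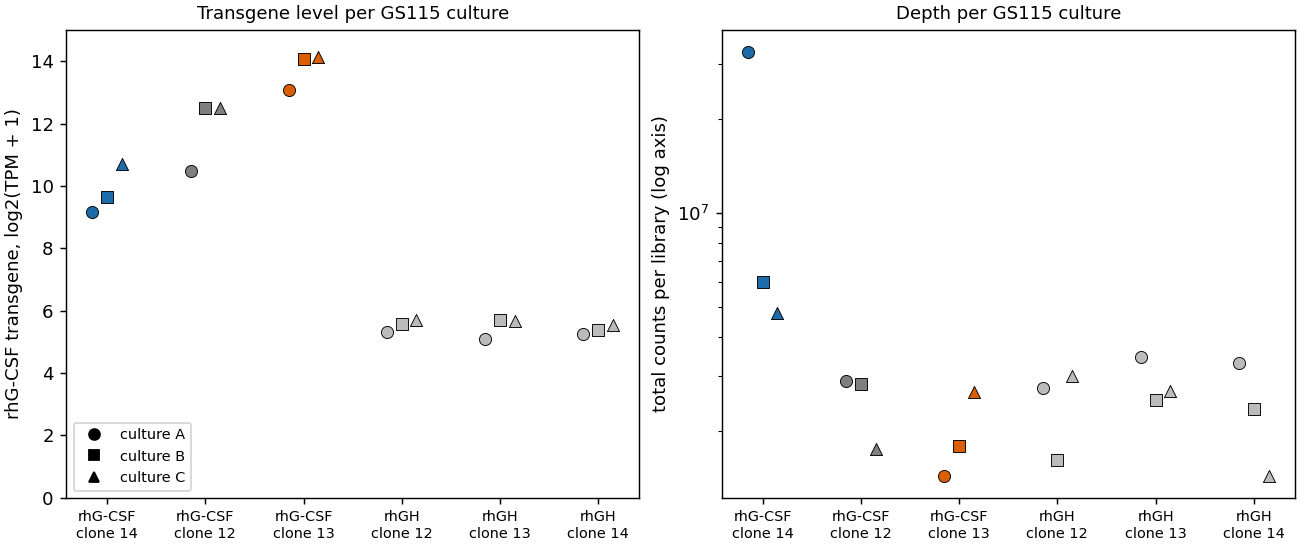
Left, the rhG-CSF transgene in log2(TPM + 1) in each GS115 culture, by clone and product, with symbols for cultures A, B, and C. Right, the total counts of the same libraries on a log axis. Clone 13 lies between 13.09 and 14.14 and clone 14 between 9.17 and 10.72, and culture 14A is the deepest library with 33003281 counts.

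Differences between the clones extended over much of the host transcriptome. Of 4964 host genes tested, 2345 (47.2%) passed the test at an adjusted p under 0.05, of which 1192 (24%) were higher in clone 13 and 1153 (23.2%) were lower. The p-values came from edgeR's quasi-likelihood test and were adjusted by the Benjamini-Hochberg method, and the 3 transgene rows were left out. The median log2 fold change of clone 13 minus clone 14 over all genes tested was 0.00, and the median size of the change among genes that passed was 0.93. More than a 2-fold difference was seen for 1028 of them, 512 higher and 516 lower, and more than a 4-fold difference for 121, 48 higher and 73 lower. The 3 cultures of one clone all lay on one side of the other 3 for 2781 genes (56%), and 2215 of these passed.

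With every library thinned to the depth of the shallowest of the 9, 2057 genes passed, 1061 higher and 996 lower, and 1997 of them were also among the 2345. The count lay between 2040 and 2106 in 10 further random draws. Without culture 14A, 1685 genes passed. The even split between directions depended on the scale. On the log2(TPM + 1) values that the authors deposited, the median gene was 0.39 higher in clone 13, and 1963 genes passed as higher (79.1%) and 518 as lower in limma. The 1028 genes with more than a 2-fold difference kept their direction on this scale, and 961 of them passed there too.

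**Figure D2:**
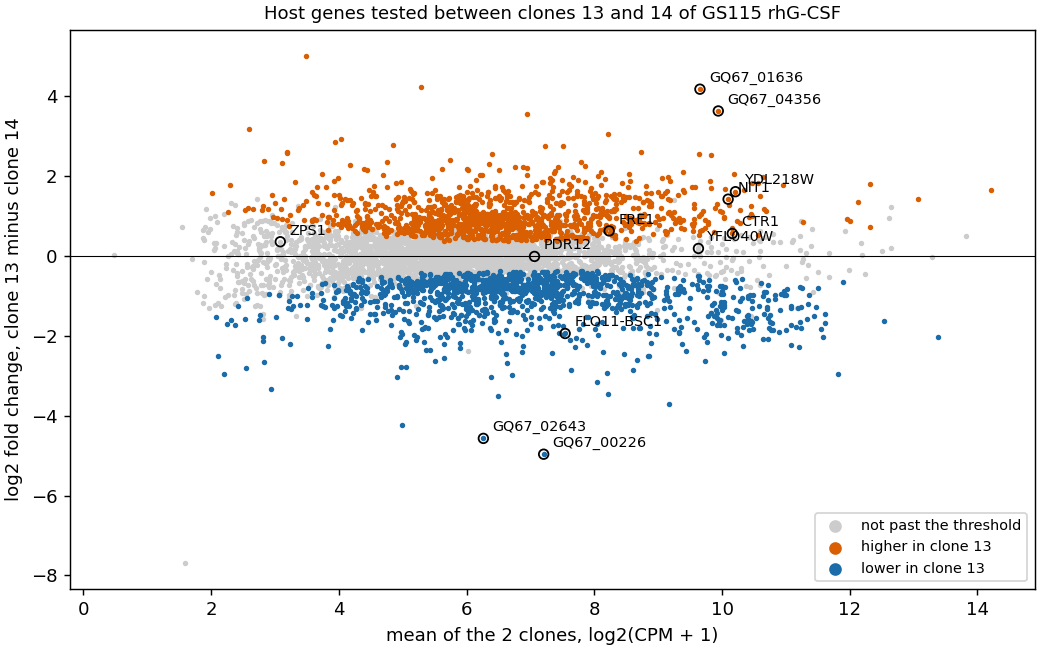
Log2 fold change of clone 13 minus clone 14 against the mean level of the 2 clones in log2(CPM + 1) for the 4964 host genes tested, with genes that passed the test in color and the named genes circled. Differences are spread over the whole range of levels, with 1192 genes higher and 1153 lower.

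Abundant transcripts were among those that differed. In 4 groups of 1241 genes each, ordered from low to high mean level, 26.5%, 44.2%, 53.9%, and 64.4% passed, in an order that also follows the number of reads available for each gene. In the highest of these groups, 344 genes were higher in clone 13 and 455 were lower. Of the 100 most abundant host transcripts 60 passed, 13 of them higher in clone 13 and 47 lower. These 100 transcripts together took between 30.1% and 30.2% of the host counts in clone 13 and between 31.0% and 32.0% in clone 14.

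The largest differences were sought among genes that also passed with thinned counts, did not overlap between the clones, and reached 10 CPM in the higher clone. The top genes have no name in the sources used here, so 2 in each direction are given by identifier. Over all genes that passed, the log2 fold change ran from -4.96 to 5.02. GQ67_01636 was 492.9, 2005, and 2073 CPM in cultures A, B, and C of clone 13 and 50.7, 60.3, and 143.0 CPM in those of clone 14. The groups did not overlap, although 13A was nearest to clone 14 and 14C nearest to clone 13. Its log2 fold change was 4.18 ± 0.68 (SE, n = 3 cultures per clone, adjusted p = 0.000947), and 4.78 without culture 14C. GQ67_04356 had the same shape, with 741.1, 2375, and 2335 CPM in clone 13 and 105.2, 120.9, and 214.2 CPM in clone 14. Its log2 fold change was 3.63 ± 0.53 (SE, adjusted p = 0.000557).

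In the other direction, GQ67_00226 was 12.4, 6.09, and 9.28 CPM in cultures A, B, and C of clone 13 and 417.6, 333.1, and 101.7 CPM in those of clone 14. The low values rest on 18, 11, and 25 counts. Its log2 fold change was -4.96 ± 0.86 (SE, adjusted p = 0.00123). GQ67_02643 was 3.45, 11.1, and 4.08 CPM in clone 13, from 5, 20, and 11 counts, and 149.3, 181.9, and 104.7 CPM in clone 14. The cultures of clone 14 were above every culture of clone 13 for both genes. For GQ67_02643 the log2 fold change was -4.57 ± 0.37 (SE, adjusted p = 4.23e-05), and -5.25 without culture 13B.

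The levels of these 4 genes were set beside those in the other strains. Scaled over all 72 libraries, GQ67_04356 ranged from 89.8 to 2089 CPM over the 9 GS115 rhG-CSF cultures and from 34.7 to 288.0 CPM over the 54 libraries of the other strains. GQ67_00226 ranged from 5.36 to 356.8 CPM in the former and from 17.2 to 69.0 CPM in the latter, so the clone 13 cultures were below and the clone 14 cultures above every library of another strain. GQ67_01636 ranged from 43.3 to 1832 CPM and from 166.7 to 1207 CPM, and GQ67_02643 from 2.97 to 155.2 CPM and from 17.2 to 191.2 CPM. For GQ67_02643 the high values of the other strains came from 1 clone, Y-11430 clone 16, with a mean of 167.0 CPM. In GS115 cultures that produced rhGH, GQ67_01636 also split cultures of 1 clone, with a lowest value of 63.0 and a highest of 796.0 CPM in rhGH clone 12 and of 52.3 and 521.2 CPM in rhGH clone 14. Low values of GQ67_00226 and GQ67_02643 were not particular to clone 13. Over the 9 GS115 rhGH cultures they ranged from 5.46 to 47.2 CPM and from 3.76 to 26.5 CPM. In rhG-CSF clone 12 their medians were 8.58 and 8.90 CPM, with 65.3 CPM in the highest culture for GQ67_00226.

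The gene with the smallest p, which was singled out after its values were seen and has no name, was low in every culture of clone 13. It had 4.83, 2.77, and 2.23 CPM in cultures A, B, and C of clone 13, from 7, 5, and 6 counts, and 53.2, 50.6, and 70.6 CPM in those of clone 14. Its log2 fold change was -4.23 ± 0.31 (SE, adjusted p = 4.14e-05). In the same 72-library scaling as above, rhGH clones 13 and 14 of GS115 had means of 37.0 ± 7.27 and 50.4 ± 9.56 CPM, near clone 14, while rhGH clone 12 had 1.95 ± 1.16 and rhG-CSF clone 12 had 4.08 ± 1.19 CPM, near clone 13 (SD, n = 3). Clones of Y-48124 were split as well, between a mean of 0.603 and a mean of 42.0 CPM.

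The study pairs 8 host genes with names, all from a list of 20 genes that set GS115 apart from other strains in cultures without a transgene. Of the 8 named genes 4 passed the test, 3 higher in clone 13 and 1 lower, against a background of 47.2% over all genes. YDL218W, an uncharacterized protein in S. cerevisiae, was 1309, 2088, and 1952 CPM in cultures A, B, and C of clone 13 and 435.3, 467.7, and 847.3 CPM in those of clone 14. The groups did not overlap, and its log2 fold change was 1.61 ± 0.29 (SE, adjusted p = 0.00122). NIT1 was 1355, 1733, and 1687 CPM in clone 13 and 481.2, 512.8, and 785.2 CPM in clone 14, again without overlap. Its log2 fold change was 1.42 ± 0.25 (SE, adjusted p = 0.00103). NIT1 thus differed by clone within GS115 while it was above the range of the other strains in both clones.

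FLO11-BSC1, named after cell surface flocculin genes of S. cerevisiae, was lower in clone 13. It was 150.3, 38.7, and 44.9 CPM in cultures A, B, and C of clone 13 and 307.1, 343.5, and 228.1 CPM in those of clone 14. Flocculin genes form a family with repeated sequence, so reads may be shared with relatives and the value is uncertain to that extent. The log2 fold change was -1.94 ± 0.42 (SE, adjusted p = 0.00358), and -2.82 without culture 13A, the one clone 13 culture with a high level.

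Metal uptake genes gave smaller values. CTR1, the high-affinity copper transporter of the plasma membrane, was 1121, 1462, and 1508 CPM in clone 13 and 870.9, 775.4, and 1120 CPM in clone 14. The lowest culture of clone 13 and the highest of clone 14 were almost equal. Its log2 fold change of 0.57 ± 0.21 (SE, adjusted p = 0.047) was at the edge of the threshold, and the adjusted p was 0.139, 0.146, 0.145, and 0.186 without 13B, 13C, 14A, and 14B. FRE1, a reductase that prepares iron and copper for uptake, was 213.7, 415.7, and 461.8 CPM in clone 13 and 208.2, 203.2, and 295.8 CPM in clone 14. The groups overlapped through 13A and the log2 fold change was 0.63 ± 0.28 (SE, adjusted p = 0.0824). It passed with thinned counts (adjusted p = 0.0494), without 13A (0.00488), and without 14C (0.0479).

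For the remaining 3 named genes the groups overlapped. YFL040W, a putative transporter, was between 553.6 and 1043 CPM in clone 13 and between 614.1 and 956.4 CPM in clone 14, with a log2 fold change of 0.19 ± 0.26 (SE, adjusted p = 0.56). PDR12 had means of 132.8 ± 14.8 and 132.6 ± 54.5 CPM (SD, n = 3), and its log2 fold change of -0.01 ± 0.26 (SE, adjusted p = 0.983) changed sign with the scaling. ZPS1, a cell surface protein induced by zinc shortage in S. cerevisiae, was between 6.09 and 10.8 CPM in clone 13 and between 4.62 and 7.89 CPM in clone 14. Its adjusted p was 0.418, and as few as 11 counts stood behind a culture.

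**Figure D3:**
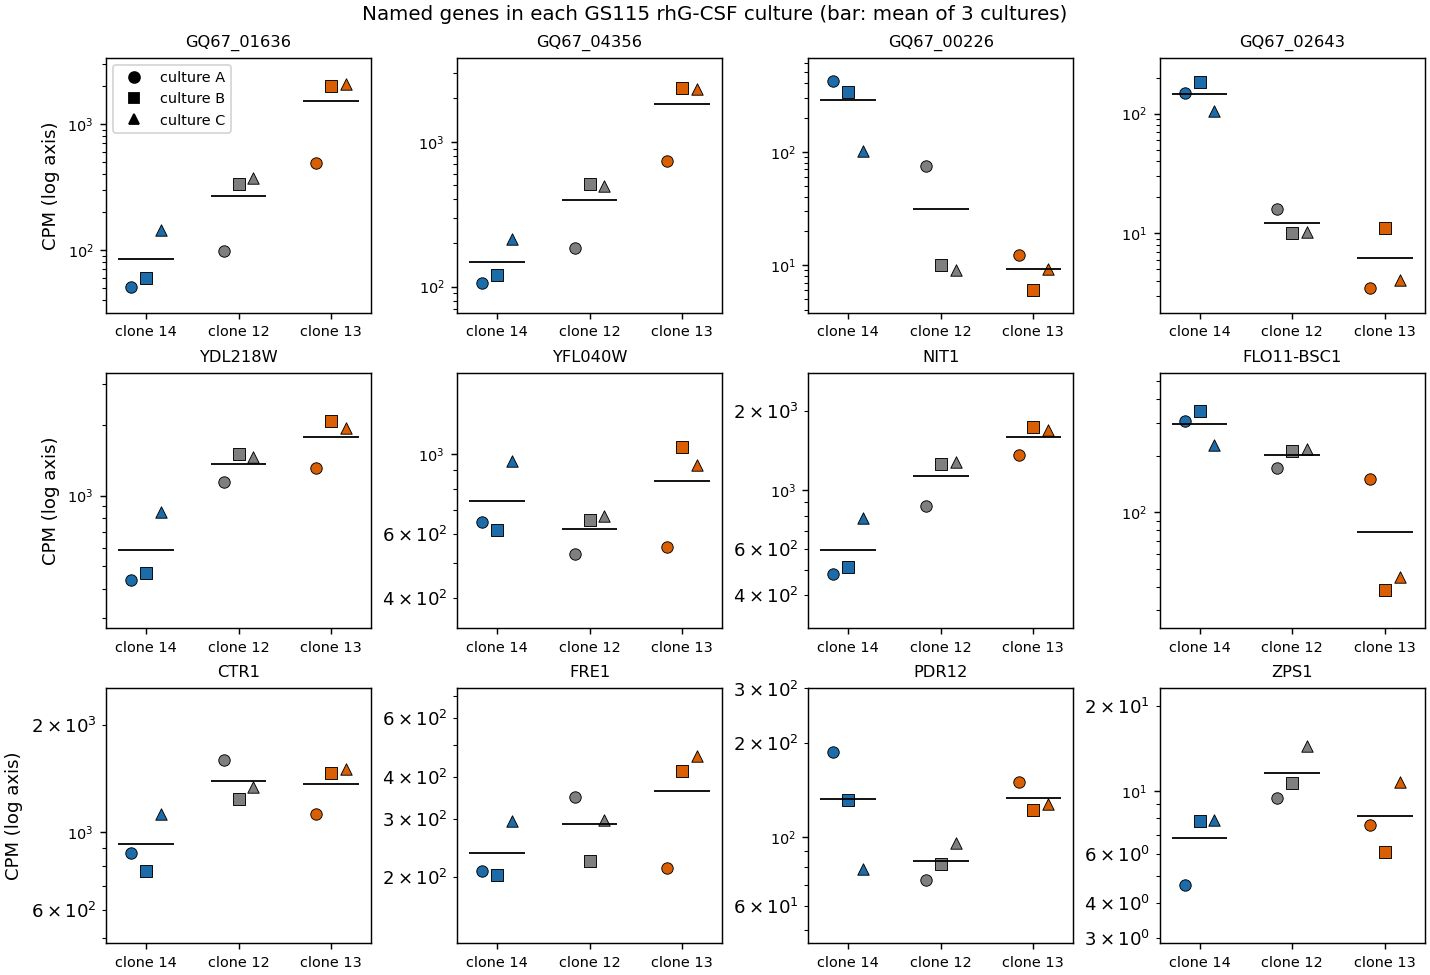
CPM on log axes of the 12 genes named here in each culture of GS115 rhG-CSF clones 14, 12, and 13, with bars for the mean of 3 cultures. GQ67_01636 and GQ67_04356 are lowest in clone 14 and highest in clone 13, GQ67_00226 and GQ67_02643 are the reverse, and PDR12 has nearly equal means of 132.6 and 132.8 CPM in clones 14 and 13.

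The list of 20 genes as a whole had a share of passing genes near the background. Of the 10 genes with a positive loading, 6 passed, 3 higher in clone 13 and 3 lower, with a median log2 fold change of -0.18. Of the 10 with a negative loading, 4 passed, all higher in clone 13, with a median of 0.49. Over the 20 genes 10 passed (50%) beside the background of 47.2%, and the median over all genes tested was 0.00. The largest member by level had no name and was 1685 CPM in clone 13 and 4576 CPM in clone 14 on average, with a log2 fold change of -1.44 ± 0.29 (SE, adjusted p = 0.00232).

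The cultures of a clone were not alike. The distance between a pair of cultures was taken as the median over genes of the absolute difference in log2(CPM + 1). Cultures 13B and 13C were 0.145 apart, whereas 13A was 0.391 and 0.382 from them. Cultures 14A and 14B were 0.113 apart, and 14C was 0.252 and 0.239 from them. Between the clones the 9 pairs ranged from 0.39 to 0.671, and the closest pair was 13A and 14C. Culture 13A was therefore as near to 14C, at 0.39, as to the other cultures of its own clone, and it was nearer still to the clone 12 cultures, at 0.214 to 0.323.

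Cultures 13A and 14C deviated along the difference between the clones. Of the 2345 genes that passed, 13A lay between the mean of 13B and 13C and the mean of clone 14 for 1784 (76.1%), compared with 50.6% of all genes tested. Culture 14C lay between 14A and 14B on one side and clone 13 on the other for 1973 (84.1%), compared with 62.6% of all genes tested. These genes were picked with the same libraries, so the shares are a description. Without 13A and 14C together, 2857 genes passed, and 2247 of the original 2345 were among them. The 2 cultures that stood apart in the host transcriptome were also those that stood apart in the transgene level of their clone. The clones were selected on that level, so this is a description as well.

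Clone 12 was intermediate. Its mean lay between the means of clones 13 and 14 for 2023 of the 2345 genes (86.3%) and for 57.2% of all genes tested. Choosing genes for a gap between the clones raises the former share by construction. In fits that share these libraries, 259 genes (5.22%) passed between clone 13 and clone 12 and 1032 (20.8%) between clone 12 and clone 14. Such counts depend on depth and on the spread between cultures, and they do not place clone 12 nearer to clone 13. The mean distance between cultures was 0.389 for clones 12 and 13 and 0.383 for clones 12 and 14. Culture 12A, the clone 12 culture with the low transgene level, lay on the clone 14 side of 12B and 12C for 1686 of the 2345 genes (71.9%), compared with 63.5% of all genes tested. This share was 79.1% for genes higher in clone 13 and 64.5% for genes lower in clone 13. GQ67_00226 is an example, with 74.9 CPM in 12A and 9.97 and 9.06 CPM in 12B and 12C.

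Every library of the series was placed on a line on which the clone 14 mean is 0 and the clone 13 mean is 1, over the 2345 genes in log2(CPM + 1), with a library left out of its own clone's mean. Cultures A, B, and C were at 0.653, 1.16, and 1.13 for clone 13, at -0.168, -0.111, and 0.28 for clone 14, and at 0.367, 0.625, and 0.597 for clone 12. Within each of these clones the culture that stood apart in transgene level was displaced toward the clone with the level nearer its own. This is a description, because the genes were called with these libraries and the clones were selected on the transgene level. The 9 GS115 rhGH cultures, which were not used to draw the line, were between 0.327 and 0.729. In the 18 clones of the other strains, positions were between 0.143 and 0.454.

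The range over the 3 cultures was 0.508 in clone 13 and 0.448 in clone 14. It was between 0.0579 and 0.258 in the other 4 GS115 clones, with the highest in rhG-CSF clone 12, and between 0.0158 and 0.154 in the 18 clones of the other strains. The ranges of clones 13 and 14 were thus the largest in the series, on genes that were chosen with these libraries. They are not on the same measure as the others. Each culture of clones 13 and 14 was left out of its own clone's mean, which widens its distance from that mean. Cultures of the other clones were placed against fixed means. In the other strains the order of the clone means by position did not have 1 relation to the transgene level. X-33 clones 13 and 16, the high and the low clone, had mean positions of 0.389 and 0.308, and Y-48124 clones 13 and 14 had 0.334 and 0.325. In Y-11430 the high clone 16, at 16.09 in log2(TPM + 1), had a mean position of 0.167, below the 0.362 of the low clone 13.

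**Figure D4:**
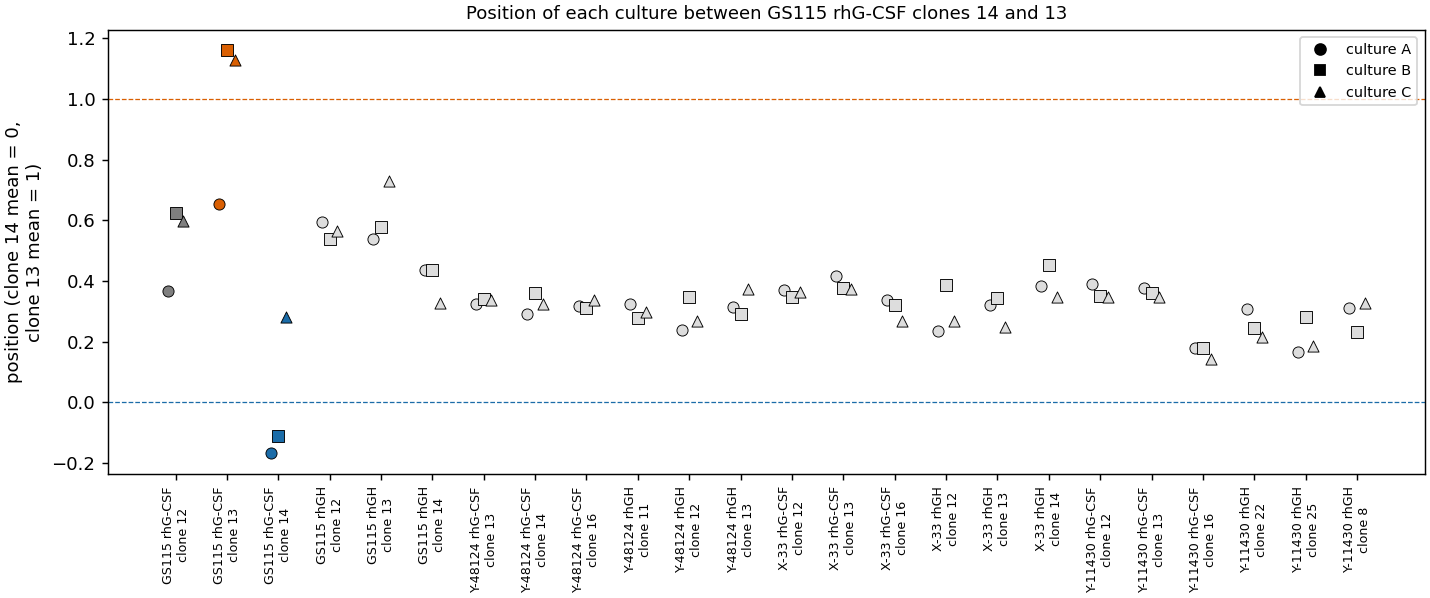
Position of each of the 72 libraries between GS115 rhG-CSF clone 14 (mean 0) and clone 13 (mean 1) over 2345 genes, by strain, product, and clone, with symbols for cultures A, B, and C. Culture 13A at 0.653 and culture 14C at 0.28 lie inward of the other cultures of their clones, and the clones of the other strains lie between 0.143 and 0.454.

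Clone pairs with a high and a low rhG-CSF transgene level were also available in the other strains, so the GS115 pair could be compared with them. Each side of a pair is a single transformant, so a difference between pairs cannot be assigned to the strain. The p-values again measure only the spread between cultures of a clone. The mean transgene level differed by 3.73 in log2(TPM + 1) between Y-48124 clones 13 and 14, by 2.66 between X-33 clones 13 and 16, and by 3.42 between Y-11430 clones 16 and 13. In fits of 9 libraries per strain, 414 genes (8.69%) passed in Y-48124, 948 (19.9%) in X-33, and 2637 (54.6%) in Y-11430. GS115, with 47.2%, was thus second to Y-11430 in the share of genes that passed. The strains differ in depth and in the spread between cultures, and a count of genes that passed depends on both.

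The direction of the GS115 difference was not carried over to the other strains as a whole. In Y-48124, 51% of the genes that passed in GS115 had the same direction, beside 50.6% of all genes tested in both. The shares were 61.9% and 58.4% in X-33, and 38.7% and 42.8% in Y-11430. The Pearson correlation of the log2 fold changes across genes was -0.003 with Y-48124 (4749 genes), 0.18 with X-33 (4759 genes), and -0.14 with Y-11430 (4818 genes), and genes are not independent replicates. Of the genes that passed in GS115, 220 (9.66%) also passed in Y-48124, which is 53.1% of the Y-48124 genes, and 106 of them had the same direction. In X-33 the overlap was 477 genes (20.9% of the GS115 and 50.3% of the X-33 genes), 341 of them in the same direction. In Y-11430 it was 1369 genes (59.3% and 52.1%), 472 in the same direction and 897 in the opposite one.

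The difference of differences was tested over the 36 rhG-CSF libraries. It was the GS115 difference minus the mean of the differences in Y-48124 and X-33, both derived from GS115, which share no library with it. This fit pools the spread between cultures over all 4 strains. For CTR1 the SE was 0.16 here and 0.21 for the GS115 difference in the 9-library fit. The p-values of the 36-library fit may therefore understate the spread of GS115 cultures. Of 4952 genes tested 2224 passed (44.9%), 1258 more positive in GS115 and 966 more negative. They included 1823 of the 2341 genes that passed in GS115 and were tested here (77.9%). The GS115 difference is a term of this test, so choosing genes by it raises that share by construction. The 4 genes given by identifier were chosen for the same difference, so their values are a description. They were 4.15 ± 0.52 for GQ67_01636, 3.35 ± 0.48 for GQ67_04356, -5.24 ± 0.72 for GQ67_00226, and -4.33 ± 0.40 for GQ67_02643 (SE).

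Among the named genes, the difference of differences separated NIT1, YDL218W, FLO11-BSC1, CTR1, and FRE1 from YFL040W, PDR12, and ZPS1, which did not pass (adjusted p = 0.149, 0.748, and 0.646). YFL040W did pass when 1 culture was left out, with 0.62 without 13A (adjusted p = 0.00935) and 0.63 without 14C (adjusted p = 0.0191), from 0.40 with all cultures. The estimates for CTR1 and FRE1 were positive in GS115 and in Y-11430 but negative in Y-48124 and X-33. In the GS115 fit CTR1 was at the edge of the threshold (adjusted p = 0.047) and FRE1 did not pass (adjusted p = 0.0824). CTR1 was higher in the high clone of GS115 but lower in the high clones of Y-48124 (-0.58 ± 0.08, adjusted p = 6.42e-05) and X-33 (-0.25 ± 0.08, adjusted p = 0.0235), and its difference of differences was 1.07 ± 0.16 (SE, adjusted p = 1.33e-06). FRE1 had -0.68 ± 0.09 in Y-48124 and -0.37 ± 0.09 in X-33, and a difference of differences of 1.25 ± 0.22 (SE, adjusted p = 1.26e-05). In Y-11430, which was not part of the test, both genes were higher in the high clone as in GS115, with 0.56 ± 0.08 for CTR1 (SE, adjusted p = 9.23e-07) and 0.45 ± 0.09 for FRE1 (SE, adjusted p = 0.00013). FLO11-BSC1 was lower in the high clone of both GS115 and X-33, with -1.60 ± 0.14 in X-33 (SE, adjusted p = 2.41e-09). It was not lower in Y-48124, with 0.17 ± 0.14 (SE, adjusted p = 0.554). In Y-11430 it was higher in the high clone, with 0.76 ± 0.14 (SE, adjusted p = 4.14e-05). YDL218W was higher in the high clone of GS115 and of Y-48124, with 0.96 ± 0.11 in the latter (SE, adjusted p = 4.33e-06). It had smaller values of 0.26 ± 0.11 in Y-11430 (SE, adjusted p = 0.0382) and 0.19 ± 0.09 in X-33 (SE, adjusted p = 0.165).

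**Figure D5:**
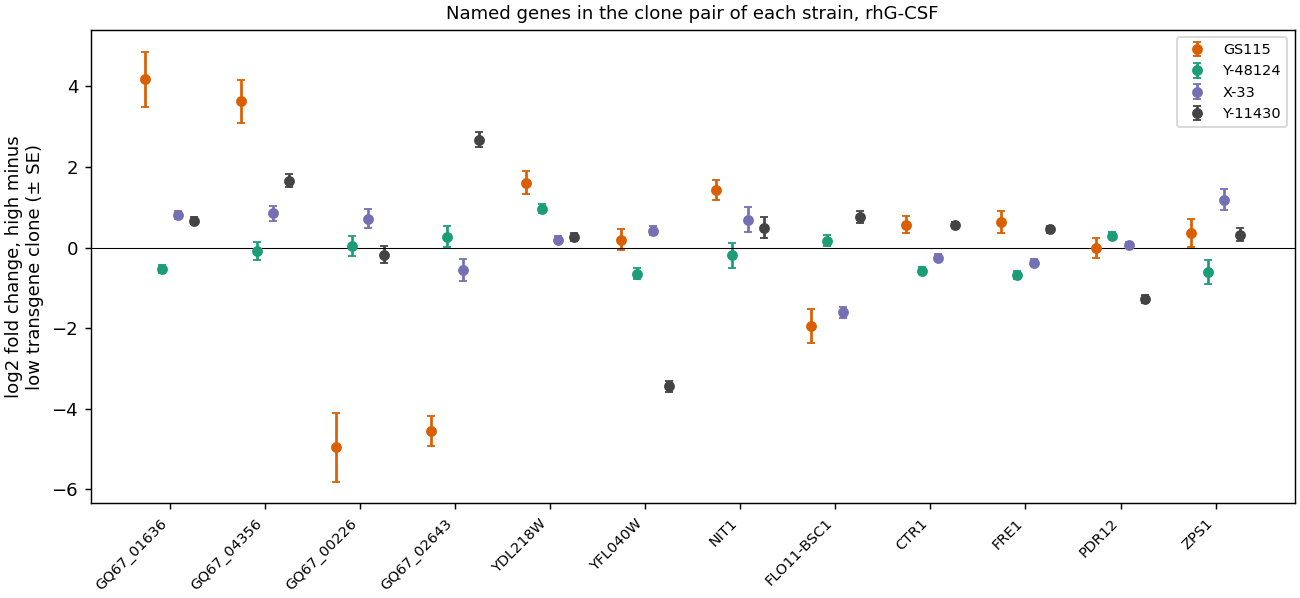
Log2 fold change of the high against the low transgene clone of each strain for the 12 genes named here, with SE bars (GS115 clone 13 against 14, Y-48124 clone 13 against 14, X-33 clone 13 against 16, Y-11430 clone 16 against 13). GS115 reaches 4.18 for GQ67_01636 and -4.96 for GQ67_00226, and CTR1 and FRE1 are positive in GS115 and Y-11430 and negative in Y-48124 and X-33.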

How the data were processed

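The authors prepared 3′ DGE libraries, which read the 3′ ends of mRNA, and quantified them with Salmon (0.9.1) on 1 transcript per gene with a 3′ extension and on the transgenes. Bedtools (2.26.0) is also listed in the submitters' processing notes. Whether copies of a molecule were collapsed is not given in the sources used here. The authors deposited unnormalized whole-number counts per gene and a second table on the log2(TPM + 1) scale. Groups were taken from the sample labels, and no column was left unused.

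Counts of the 9 GS115 rhG-CSF libraries were compared with edgeR (version 4.0.16, R version 4.3.3) after filterByExpr and TMM, with robust dispersions and Benjamini-Hochberg adjustment over all genes tested. The study used DESeq2 with shrinkage, which was an alternative here. The 3 transgene rows were left out. CPM were scaled over these 9 libraries unless stated. Counting error sets the precision of low values, and chi-square per degree of freedom between cultures of a clone was between 3.11 and 81.7, so no pair was a repeat of 1 library.

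Named genes were the 8 that the study pairs with a name, and the 2 largest differences in each direction among genes that passed with full and thinned counts, did not overlap between clones, and reached 10 CPM in the higher clone. The clone pair, members, and lists were chosen with earlier results of these data known. None of the identifiers was found in the species' gene table (0 matches), so other genes were left unnamed and lists by pathway were not run. Alternatives were DESeq2 (1.42.0), DESeq2 size factors, no filter, thinned counts, other sets of libraries, the transgene rows kept, a 2-fold minimum, limma (3.58.1) on log2(TPM + 1) and log2(CPM + 1), a pseudocount of 0.1, the culture letter as a block, and each culture left out. Plots were made with Matplotlib (3.10.9).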

Additional observations from a re-analysis of the deposited data

Results flagged for a closer look

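The high-against-low clone difference of GS115 differed from that of Y-48124 and X-33 in 2224 of 4952 genes (44.9%) by the test of the difference itself. Each clone is a single transformant, so this is a difference between clone pairs and cannot be assigned to the strain. Of the genes named here, 9 were among the 2224, including the 4 given by identifier. Those 4 were chosen for their GS115 difference, which is a term of this test, so their values are a description. On the log2 scale they were 4.15 for GQ67_01636, 3.35 for GQ67_04356, -5.24 for GQ67_00226, and -4.33 for GQ67_02643. The others were 1.12 for YDL218W, 1.26 for NIT1, -1.16 for FLO11-BSC1, 1.07 for CTR1, and 1.25 for FRE1.

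Reads of the rhGH transgene were present in libraries of clones that carry rhG-CSF. Cultures A, B, and C of clone 13 had 60, 71, and 95 counts, and those of clone 14 had 638, 120, and 93 counts, the largest in the deepest library. The rhG-CSF transgene had 67 to 152 counts in GS115 libraries that produce rhGH, so these numbers are of the size of the background and are not read as expression. On the log2(TPM + 1) scale the rhGH transgene averaged 5.38 in clone 13 and 4.11 in clone 14, compared with 12.6 to 13.3 in the GS115 clones that produce rhGH.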

How the results depend on the processing

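The count of 2345 genes lay within 1.5 times of its value under every alternative except the 2-fold minimum, which by its construction left 1028. A similar count did not always hold the same genes. In limma on log2(TPM + 1) 2481 genes passed, and 1704 of them were among the 2345. With DESeq2, 2438 genes passed. Leaving out each culture gave between 1685 and 2717 genes, and for the difference of differences between 1896 and 2457. With the culture letter as a replicate block, 2331 and 2214 genes passed. The letters were not treated as pairs, since same-letter deviations of clones 13 and 14 correlated by 0.174, -0.078, and 0.154. The mean distance within clone 13 was 0.306, and leaving out a culture gave between 0.145 and 0.391. Within clone 14 it was 0.202, and leaving out a culture gave between 0.114 and 0.252. The mean over the 9 pairs between clones was 0.565, and leaving out a culture gave between 0.538 and 0.612. NIT1, YDL218W, FLO11-BSC1, and the 4 genes given by identifier passed under all 18 alternatives, but with DESeq2's shrinkage the log2 fold change fell in size to 2.58 for GQ67_01636 and -2.42 for GQ67_00226. CTR1 failed under 6, and FRE1 passed under 6. PDR12 turned positive with thinned counts (0.039), 36 libraries (0.067), log2(TPM + 1) (0.487), log2(CPM + 1) (0.082), and the replicate block (0.037), and lay between -0.273 and 0.334 with a culture left out, above 0 without 13B, 13C, or 14A. YFL040W lay between -0.0061 (without 13B) and 0.417 with 1 culture left out, was 0.594 on log2(TPM + 1), and passed without 13A and 14C together (0.645, adjusted p = 0.00417). In the difference of differences with a culture left out, PDR12 lay between -0.361 and 0.173 (without 14A), and ZPS1 between -0.179 (without 14A) and 0.361, and below 0 without 13C as well. None of these reversals passed the test, and their cause was not tested. Fits that leave out a culture assume that the remaining cultures of its clone vary like those of the others. Depth limits genes such as ZPS1, which had as few as 11 counts in a culture.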
